A study of Homo sapiens with 6 samples.

Results

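The fatty acid synthesis genes described here are 10 lipogenic genes, ACLY, ACACA, ACACB, FASN, SCD, ELOVL6, FADS1, FADS2, ACSS2 and ME1, out of 19987 protein-coding genes examined. They were taken by name, and peaks were collected over the annotated span of each gene on GRCh38 or within 1000 bp of it. The libraries were chromatin immunoprecipitations (ChIP-seq) from HepG2-TAF2-V5, a clone of HepG2, an established human liver cancer line, that carries a V5-tagged TAF2. TAF2 belongs to TFIID, the complex that recognises core promoters before RNA polymerase II is loaded, and V5 is a short peptide tag that an antibody recognises. The V5 group holds 3 libraries made with the V5 antibody, and the control group holds 3 libraries of the same clone. The labels name the controls input in one field and IgG in another, and they were not analysed here, so no background measured in controls stands beside the values. No treatment other than the antibody is labelled. All libraries come from 1 clone, and whether they come from separate cultures is not stated.

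Fatty acid synthesis turns cytosolic acetyl-CoA into palmitate and then into longer and less saturated fatty acids. ACLY cleaves citrate to acetyl-CoA and ACSS2 makes acetyl-CoA from acetate. ACACA and ACACB, the acetyl-CoA carboxylases, make malonyl-CoA, and FASN, the fatty acid synthase, builds palmitate from it with NADPH, part of which ME1, the cytosolic malic enzyme, supplies. ELOVL6 elongates palmitate, SCD places the first double bond, and FADS1 and FADS2 desaturate polyunsaturated fatty acids. In liver the pathway is under the control of the SREBP family of transcription factors, together with liver X receptors and the carbohydrate-responsive factor ChREBP, and it is often raised in liver cancer.

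The V5 lists held 1599, 2557 and 1887 peaks in replicates 1, 2 and 3. The fold of a peak over background and its -log10 q are the authors' own values for that peak. They were used to describe and rank peaks within their list, and the rank percentile of a peak is its place by fold among the peaks of its library, with 100 as the strongest. Median fold was 5.01, 5.25 and 5.03 in replicates 1, 2 and 3. Read counts are not part of the lists, and the depth behind each peak is unknown. Peaks were present in at least 2 libraries at 8 of 14 hepatocyte marker genes, among them FOXA3, APOA1, APOA2, HNF4A, AFP and APOB, and at 1 of 6 markers of other liver cells (PECAM1), beside 3.76% of all protein-coding genes, which describes where peaks lie and does not measure which cells were used.

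V5 peaks lay in any library at 7 of the 10 genes, against 8.67% of all protein-coding genes. At 5 of these 7 genes they lay in 1 library alone. The 4 genes with a peak near a listed transcription start were ACLY, ACACA, SCD and ACSS2, and in each the peak lay just upstream of that start. Over all genes with a listed start, 4.1% had such a peak in any library. ACACA and ACSS2 had such a peak in replicates 1 and 3, SCD in replicate 2 and ACLY in replicate 3. FASN had a peak against its upper annotated end in replicate 3. FADS1, FADS2 and ME1 had no peak in any library. In all, 10 peaks were collected, and each of them fell to a single gene of the 10. Replicate 1 had peaks at 3 of the 10 genes against 3.7% of all protein-coding genes, replicate 2 at 3 against 5.75% and replicate 3 at 4 against 4.87%. None of the peaks had another annotated gene within 1000 bp.

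Promoter sequences from RefSeq (GRCh38.p14), which run from 250 bp before to 50 bp after a listed start, were found for 9 of the 10 genes, all except FASN. For each gene whose promoter a peak reached into by more than a few bases, the promoter that the peaks overlap most is shown, together with that of OLMALINC, a long noncoding RNA gene beside SCD at whose start the strongest reproducible region (overlapping peaks of at least 2 libraries) within 100 kb of any of the 10 genes lay. Capitals mark CCAAT on either strand (ATTGG on the reverse), the letters that the factor NF-Y is known to recognise.
ACACA, internal start, chr17:37359047-37359346, minus strand: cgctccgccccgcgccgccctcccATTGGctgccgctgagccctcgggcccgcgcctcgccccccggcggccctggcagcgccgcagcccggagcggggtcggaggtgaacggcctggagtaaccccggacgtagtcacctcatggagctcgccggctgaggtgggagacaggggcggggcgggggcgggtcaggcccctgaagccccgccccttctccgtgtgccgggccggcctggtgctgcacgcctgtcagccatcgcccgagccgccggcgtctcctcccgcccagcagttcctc
SCD, chr10:100346983-100347282, plus strand: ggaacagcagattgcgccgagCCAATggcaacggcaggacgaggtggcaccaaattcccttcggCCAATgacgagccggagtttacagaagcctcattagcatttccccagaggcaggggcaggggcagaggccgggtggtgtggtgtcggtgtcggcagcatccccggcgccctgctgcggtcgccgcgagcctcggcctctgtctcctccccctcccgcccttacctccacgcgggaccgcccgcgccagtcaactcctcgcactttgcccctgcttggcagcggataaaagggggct
ACLY, chr17:41918973-41919272, minus strand: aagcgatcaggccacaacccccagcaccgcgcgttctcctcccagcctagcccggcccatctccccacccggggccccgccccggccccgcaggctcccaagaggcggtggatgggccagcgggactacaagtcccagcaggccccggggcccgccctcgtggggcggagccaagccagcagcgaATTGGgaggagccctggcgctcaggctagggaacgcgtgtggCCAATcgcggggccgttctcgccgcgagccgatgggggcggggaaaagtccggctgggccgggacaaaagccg
OLMALINC, chr10:100373326-100373625, plus strand: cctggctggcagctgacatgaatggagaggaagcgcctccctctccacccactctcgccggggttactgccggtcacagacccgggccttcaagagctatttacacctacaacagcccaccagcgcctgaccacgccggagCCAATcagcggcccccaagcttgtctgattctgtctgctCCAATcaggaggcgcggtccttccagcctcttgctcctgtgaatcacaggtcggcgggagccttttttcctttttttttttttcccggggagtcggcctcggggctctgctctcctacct

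In the ACACA sequence the reverse CCAAT starts 226 bp upstream of the start and lay inside the peaks of replicates 1 and 3. In the SCD sequence both copies, 229 and 186 bp upstream, lay inside the peak of replicate 2. In ACLY the copies at 65 and 23 bp upstream lay outside the peak of replicate 3, whose nearer edge was 66 bp upstream of the start. The GC box GGGCGG, on either strand, lay inside the same peaks of ACACA at 246 and 236 bp upstream and of SCD at 33 bp. In ACLY it lay inside the peak of replicate 3 at 174, 99 and 88 bp upstream. The other GC boxes of these sequences lay outside the peaks. Searched on both strands, CCAAT was present in 8 of 15 promoters of these genes and in 34.6% of 22140 promoters of protein-coding genes. Of the 547 promoters that a peak of any library touched, 43.9% held it. The GC box GGGCGG was present in 12 of the 15 promoters, against 56.3% of all promoters and 80.4% of those touched by a peak. A loose form of the sterol regulatory element, TCACNCCAC, was in 0 of the 15 promoters, against 1.13% of all and 1.10% of those touched by a peak. TATAAA was in 0 of 15 against 9.47%, and the E-box CACGTG in 0 of 15 against 8.34%. Promoters of one gene can overlap, as those of ACLY and FADS2 do, and a match or its absence describes only these letters in these windows.

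The acetyl-CoA supply genes came first in the pathway. ACLY (chromosome 17, 41866917 to 41930545) had 1 peak, in replicate 3 (41919088 to 41919349), with a fold of 5.18, a -log10 q of 5.97 and a rank percentile of 54.1. No peak was present at ACLY in replicates 1 and 2. The summit, the highest point of the peak, lay 238 bp upstream of the listed start at 41919022, whose promoter is shown above and which itself lies 11523 bp inside the upper end of the span. The promoter of the other listed start of ACLY, at 41918951, was overlapped by 114 bp of this peak, against 185 bp for the one shown. The peak counts as inside the gene by its span and as promoter-proximal by its start.

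ACSS2 (chromosome 20, 34874989 to 34927959) had a peak in replicate 1 (34876193 to 34876344) with a fold of 5.07 and a rank percentile of 51.9. In replicate 3 its peak (34876070 to 34876363) had a fold of 6.10 and a rank percentile of 77.3. The peaks overlapped, and replicate 2 had none, although its list was the longest. Their summits lay 303 and 381 bp upstream of the inner of 2 listed starts, which is 1623 bp inside the span. The nearest edges of these peaks were 1204 and 1081 bp from the lower end of the gene, just beyond the 1000 bp that define an end peak, so they were counted as inside the span.

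The carboxylase genes differed in where their peaks lay. ACACA (chromosome 17, 37084992 to 37406836), the longest of the 10 genes at 321.8 kb, was the only one of the 10 with a peak in each of the 3 libraries. In replicate 1 the peak (37359289 to 37359444) had a fold of 4.68 and a rank percentile of 38.6, and in replicate 3 it (37359225 to 37359402) had a fold of 4.63 and a rank percentile of 35.4. These peaks overlapped, with summits 276 and 214 bp upstream of an internal listed start that lies 47740 bp inside the upper end. No peak lay within 1000 bp of the other listed starts of ACACA, at the upper end itself and 107069 bp inside it.

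The ACACA peak of replicate 2 lay elsewhere (37147352 to 37147497). It had a fold of 10.3 and a rank percentile of 98.0, the strongest of the 10 peaks by percentile, and only 51 of the 2557 peaks of that list had a higher fold. Its summit was 62411 bp from the lower end and 152.4 kb downstream of the nearest listed start, and no peak of another library overlapped it. Presence in 3 libraries at ACACA thus comes from separate places.

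ACACB (chromosome 12, 109111189 to 109268226), which encodes the carboxylase isoform of the outer mitochondrial membrane, had 1 peak, in replicate 1 (109198367 to 109198527). Its fold was 5.12 and its rank percentile 53.5. The summit lay 87240 bp from the lower end and 43.8 kb downstream of the nearest listed start, so it was neither at an end nor at a listed start. Replicates 2 and 3 had no peak at ACACB.

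FASN (chromosome 17, 82078338 to 82098236) had 1 peak, in replicate 3 (82098242 to 82098432), with a fold of 3.73, a -log10 q of 3.54 and a rank percentile of 8.29. Its percentile was the lowest of the 10 peaks. The peak began 6 bp outside the upper end of the gene and its summit lay 72 bp outside it. No start or strand was listed for FASN, so this peak could not enter the counts of start peaks. Whether it lies at the start of the gene was not read here. Replicates 1 and 2 had no peak there.

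**Figure D1:**
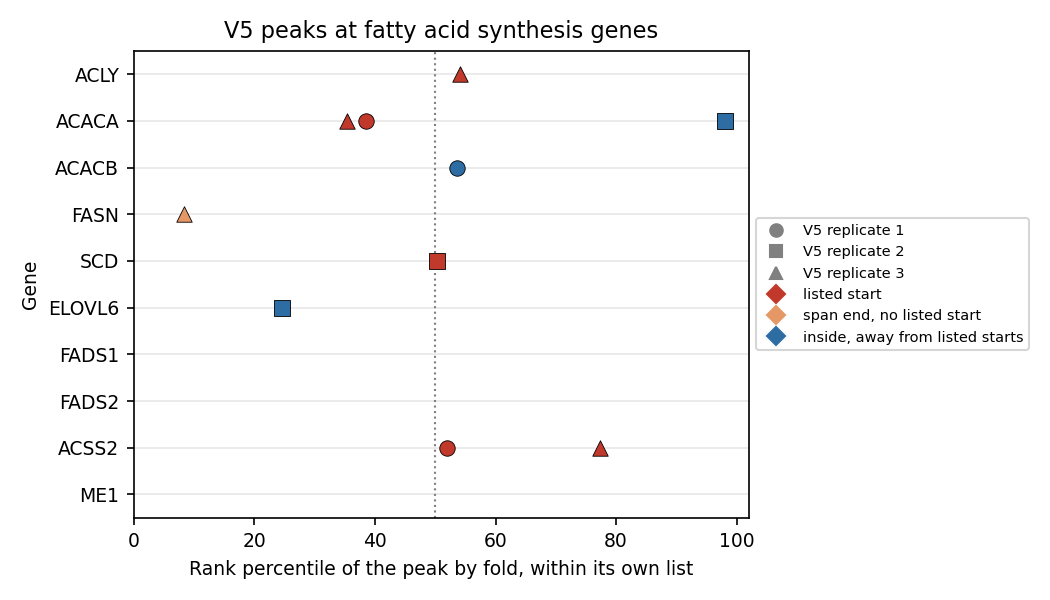
Rank percentile by fold (x axis, within the list of each library) of every V5 peak over or within 1000 bp of the 10 genes (y axis). Shapes give the library and colours the place of the peak, the dotted line marks percentile 50, and rows without a point had no peak. The points run from 8.29 at FASN to 98.0 at ACACA.

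SCD (chromosome 10, 100347233 to 100364826), the stearoyl-CoA desaturase gene, had 1 peak, in replicate 2 (100346949 to 100347206). Its fold was 5.25, the median of that list, and its rank percentile was 50.3. The summit lay 252 bp upstream of the listed start, which is also the lower end of the gene, and the nearer edge of the peak was 27 bp from it. Replicates 1 and 3 had no peak at SCD.

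Beyond the upper end of SCD, which is its 3′ end on the plus strand, a region 8.52 kb away held a peak of each library (chromosome 10, 100373347 to 100373570). Its folds were 8.53, 11.7 and 9.66 and its rank percentiles 95.9, 98.8 and 97.8 in replicates 1, 2 and 3. The region lies outside the 1000 bp window of SCD and does not count among the 10 peaks. Its summits were 103, 114 and 91 bp upstream of the listed start of OLMALINC, and both CCAAT copies of the sequence shown above lay inside the peaks of all 3 libraries. In each library it ranked above 95% of peaks, whereas the peak at the SCD start was present in 1 library and ranked in the middle of its list.

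ELOVL6 (chromosome 4, 110045846 to 110199202) had 1 peak, in replicate 2 (110084069 to 110084356). Its fold was 4.43, its rank percentile 24.6 and its -log10 q 2.10. The summit lay 38429 bp from the lower end and 114.3 kb downstream of the listed start, and no peak lay within 1000 bp of that start. Replicates 1 and 3 had none over the gene.

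The remaining 3 genes had no peak over their span or within 1000 bp in any library. FADS1 (chromosome 11, 61799627 to 61817003) and FADS2 (61816203 to 61867354) lie on opposite strands and overlap at their starts. The absence at their starts is therefore a single observation and not separate ones. Beyond the window, the nearest peaks to FADS1 were 29.8, 29.8 and 148.7 kb away in replicates 1, 2 and 3. ME1 (chromosome 6, 83210402 to 83431051), the second longest gene at 220.7 kb, had its nearest peaks 2213, 1377 and 1974 kb away. Without read counts, the absence of a called peak says only that none passed the authors' threshold.

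**Figure D2:**
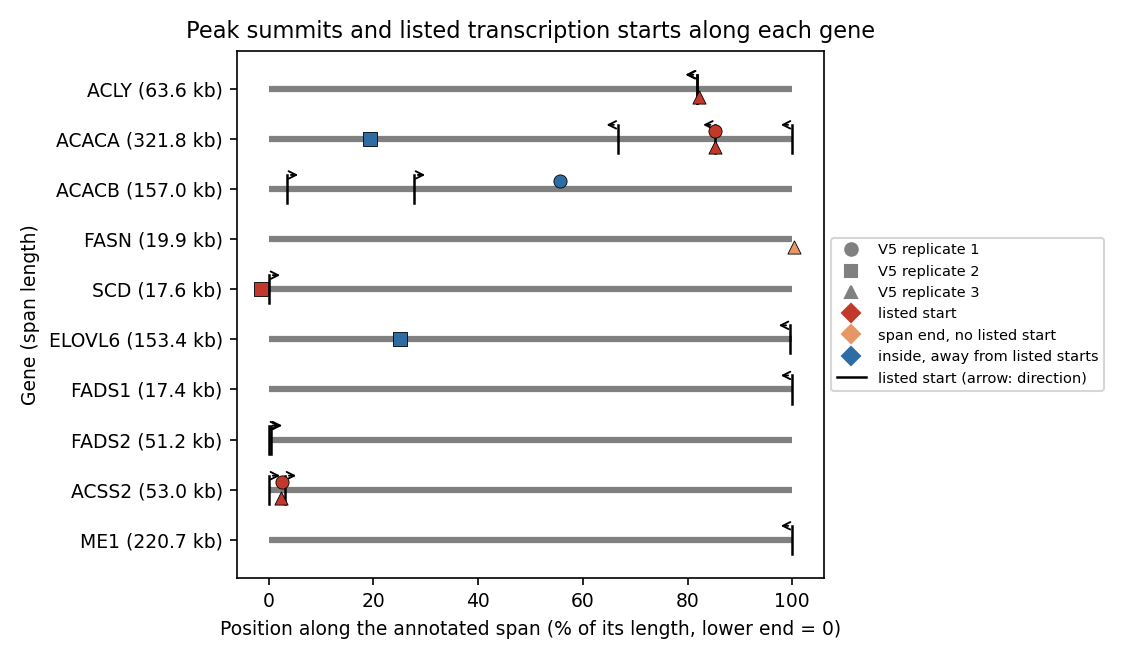
Summits of the V5 peaks along each annotated span (x axis, percent of its length, with the lower end at 0; y axis, gene and length in kb), with listed transcription starts as black ticks and arrows for direction. Red points lie at a listed start, orange at a span end of the gene without a listed start, and blue inside the gene away from starts.

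Measured by listed starts, 6 of the 10 peaks lay within 1000 bp of one, in 4 genes, and all 6 summits lay upstream, between 214 and 381 bp from the start. Over all protein-coding genes with a listed start, the summits of start peaks were upstream in 64.8% of 1125 pairs of gene and peak, by a median of 70 bp, and 10.2% of them fell between 214 and 381 bp upstream. That range was read from the 6 peaks themselves, so the share is a description. Neither the upstream place nor its distance was tested, because these peaks come from 4 genes and share starts.

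**Figure D3:**
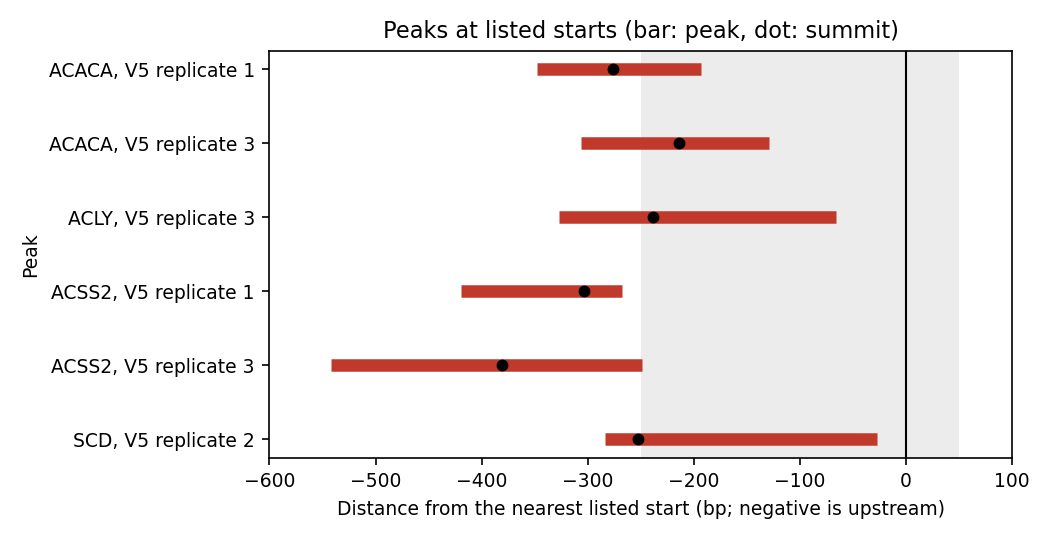
The 6 peaks at listed starts (y axis, gene and library) drawn against the nearest listed start (x axis, bp, negative upstream). Red bars span each peak, black dots are summits, and the grey band is the 250 bp before to 50 bp after the start covered by the promoter sequences. All summits lie between 381 and 214 bp upstream.

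Counted per gene in any library, 7 of 10 of these genes had a peak over the span or within 1000 bp (70%), against 8.67% of all protein-coding genes and 10.7% of the 11003 genes with spans between 17.4 and 321.8 kb, the range of the 10 genes. In at least 2 libraries the count was 2 of 10, against 3.76% of all protein-coding genes and 4.59% of those of like length. In all 3 libraries it was 1 of 10, ACACA, against 1.9%. Without replicate 1 or without replicate 3 the count in both remaining libraries was 1, and without replicate 2 it was 2. A reproducible region was present at 2 of 10 genes, ACACA and ACSS2, against 3.27% of all. Peaks inside the span in at least 2 libraries were present at these 2 genes too, against 2.67% of all and 3.64% of those of like length, and in any library at 5 of 10, against 5.64% of all. End peaks in at least 2 libraries were present at 0 of 10 genes, against 1.37% of all, and in any library at 2 of 10, FASN and SCD, against 4.01%.

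By listed starts, 4 of the 9 genes with one had a start peak in any library, against 4.1% of 15813 genes, and 2 of 9 in at least 2 libraries, against 1.38%, or 1.45% of those of like length. In all 3 libraries the count was 0 of 9, against 0.594%. No test was made over the 10 genes, since they were chosen with earlier results known. The 2 of 9 genes rest on replicates 1 and 3 together: without either of them, 0 genes had a start peak in both remaining libraries, and without replicate 2 the count was 2.

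Peaks over the span or within 1000 bp, divided by span length, came to 2.79, 2.79 and 3.72 per Mb for the 10 genes in replicates 1, 2 and 3. For all protein-coding genes the values were 0.923, 1.41 and 1.14. The 1000 bp on either side are not part of the length, and a peak within reach of several genes counts for each. These densities rest on 3, 3 and 4 peaks. ACLY, ACACA and FASN, the last without a listed start, are on chromosome 17 and ACSS2 is on chromosome 20. On these chromosomes start peaks in any library were present at 7.65% and 9.64% of genes with a listed start, against 4.1% over all chromosomes. In at least 2 libraries the shares were 2.31% and 3.65%, against 1.38%. The part of the chromosome in the counts was not tested.

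**Figure D4:**
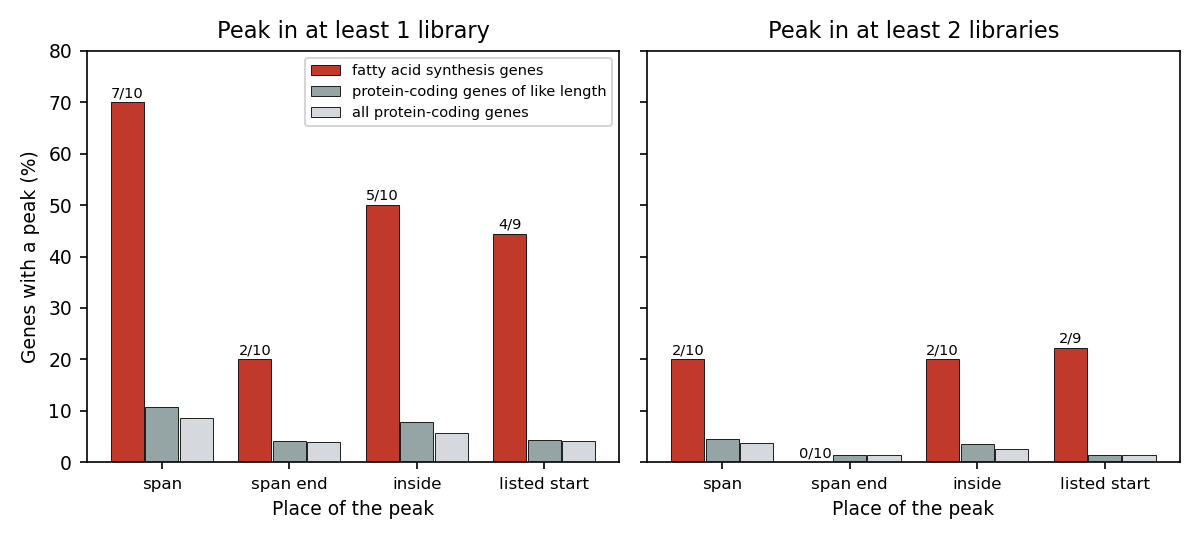
Share of genes with a V5 peak (y axis, percent) by place of the peak (x axis), in any library (left) and in at least 2 libraries (right). Red bars are the fatty acid synthesis genes with their counts, dark grey bars protein-coding genes of like length and light grey bars all protein-coding genes; the bars have no error, since genes are not replicates. The red bar at span ends is at 2/10 in any library and at 0/10 in at least 2 libraries.

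The 10 peaks were spread over the ranks of their lists, with rank percentiles from 8.29 to 98.0 and a median of 51.1, and 6 of 10 lay above the middle of their list. The 6 start peaks had rank percentiles between 35.4 and 77.3, and over all protein-coding genes the median percentile of start peaks was 44.8, 42.0 and 40.6 in replicates 1, 2 and 3. The peak at percentile 98.0 was the one inside ACACA in replicate 2, away from any listed start.

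The rest of the pathway was read with the same rule of a peak over the span or within 1000 bp in at least 2 libraries, present at 3.76% of all protein-coding genes. Among 18 regulators of lipid synthesis, SREBF2 and USF2 had such peaks. SREBF2, which encodes the SREBP best known for control of sterol genes, had folds of 14.8, 13.9 and 12.2 and rank percentiles of 99.6, 99.4 and 99.5 in replicates 1, 2 and 3. USF2, an E-box binding factor, had folds of 5.04 and 6.37 in replicates 2 and 3. SREBF1, whose product is best known for control of fatty acid genes, had a peak in replicate 3 alone (fold 5.91), and MLXIPL, which encodes ChREBP, in replicate 2 alone (fold 3.77), both inside the span and away from listed starts. SREBF1 and MLXIPL were named after their values were seen.

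Among 16 genes of cofactor and substrate supply, 4 had peaks in at least 2 libraries. They were IDH1, an NADPH-producing isocitrate dehydrogenase, with start peaks in 3 libraries (folds 5.17, 3.61 and 4.07), PKLR, the liver pyruvate kinase (6.21, 6.82 and 6.07), and ACSS1 and ACSS3, acyl-CoA synthetases of mitochondria. The PKLR values are those of FDPS, a neighbouring gene of sterol synthesis, because the same peaks lie within reach of both genes. ACSS1 had folds of 4.16 and 4.22 and ACSS3 folds of 6.92 and 3.93 in replicates 2 and 3, and replicate 1 had no peak at either gene.

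Of 22 genes of acyl-CoA and glycerolipid synthesis, 5 had peaks in at least 2 libraries. ACSL3 and ACSL4, long-chain acyl-CoA synthetases, had them in 3, with folds of 6.08, 5.05 and 3.58 at ACSL3 and 7.39, 6.39 and 5.91 at ACSL4. MOGAT1 (folds 7.06 and 5.20), DGAT2 (4.30 and 4.91), which makes triglyceride, and LPIN1 (5.42 and 4.55), a phosphatidate phosphatase, had them in replicates 2 and 3. LPIN1 and ACSL3 had start peaks in 2 libraries each. The counts were 0 of 15 for other genes of elongation and desaturation, 0 of 8 for mitochondrial fatty acid synthesis and 1 of 23 for fatty acid oxidation, where ETFB, an electron transfer flavoprotein subunit, had folds of 5.72, 9.27 and 5.97.

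Sterol synthesis and uptake, the branch most like this one, had peaks in at least 2 libraries at 14 of 24 genes and start peaks in at least 2 libraries at 9 of the 17 with a listed start, beside 2 of 10 and 2 of 9 for fatty acid synthesis. The start peaks of ACACA ranked at percentiles 38.6 and 35.4 and those of ACSS2 at 51.9 and 77.3 in replicates 1 and 3. The sterol values below are another measure, the mean over libraries of each gene's strongest peak, at a start or not. By that measure ACSS2 had 64.6 and ACACA 57.3, which includes the ACACA peak of replicate 2 away from listed starts. Over the 14 sterol genes these means ran from 99.5 to 6.0, and most of them were high. FDPS, with a mean of 79.3, was number 9 of the 14 in this order. HMGCS1, FDFT1, SQLE and MSMO1 were among the strongest, with mean rank percentiles between 99.5 at HMGCS1 and 85.1 at MSMO1 over the libraries with a peak. Those below FDPS were 57.0 at ACAT2, 54.3 at LSS, 47.5 at GGPS1, 28.5 at MVD and 6.0 at STARD4. This choice of genes was made once their values were known. The lists were not tested against each other.

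**Figure D5:**
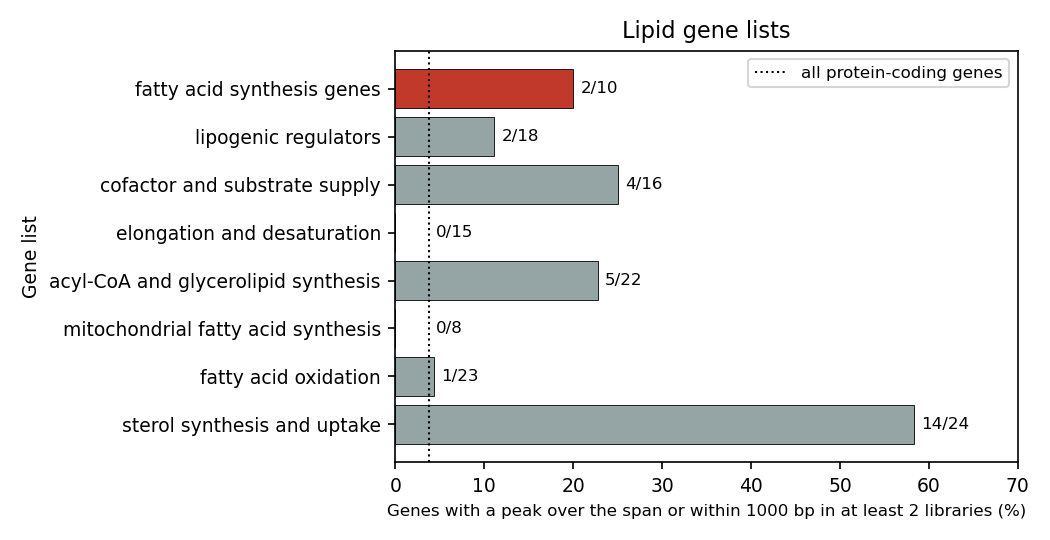
Share of genes with a V5 peak over the span or within 1000 bp in at least 2 libraries (x axis, percent) for fatty acid synthesis genes (red) and 7 other lipid gene lists (grey; y axis), with the count of genes beside each bar. The dotted line is the share over all protein-coding genes, 3.76%; fatty acid synthesis has 2/10 and sterol synthesis and uptake 14/24.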

How the data were processed

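ChIP-seq peak lists of 3 V5 libraries were used, mapped to GRCh38 per the submitters' processing notes. Which aligner and caller were used, at what threshold and against which control, is not given in the sources used here. The deposited lists give each peak a linear fold ratio over background, a -log10 p and a -log10 q, per library and not pooled; the deposited score repeats the -log10 q and was not used. Depth is unknown.

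Gene spans and starts came from RefSeq tables of GRCh38.p14, in which 15813 of 19987 protein-coding genes had a listed start. A peak within 1000 bp of either span end was an end peak, another peak over the span an inside peak, and a peak within 1000 bp of a listed start a start peak; overlap by 1 bp sufficed. A start peak can be an end or inside peak. Peaks overlapping between at least 2 libraries formed reproducible regions. The members, lists and rule for naming genes (all 10 members, and up to 6 genes per list with peaks in at least 2 libraries) were chosen with earlier results of these data known, so no test was made. A few genes of one list are not reported here by name. The use of listed starts in the alternatives was chosen after seeing the data. Alternatives covered peak strength, windows, overlap, number of libraries and the omission of single replicates. Simulated peaks placed at known genes were used to test the code. Python 3.11.15 with numpy 2.4.6, pandas 2.3.3 and matplotlib 3.10.9 was used.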

Additional observations from a re-analysis of the deposited data

How the results depend on the processing

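The lists carry no depth, and with 10 genes a single peak moves each count. With -log10 q of at least 5, 1 gene had peaks in at least 2 libraries, inside peaks and start peaks in 2 libraries numbered 1 each, 1 reproducible region and 4 peaks were left, and 2 genes had a start peak in any library. With a fold of at least 5 these were 1 gene, 1 with inside peaks, 1 with start peaks in 2 libraries, 1 region and 6 peaks. Among the strongest 1000 peaks of each list, 1 region, 6 peaks and 1 gene with start peaks in 2 libraries were left. A window of 250 bp left 1 gene with start peaks in 2 libraries, since the edge of the ACSS2 peak in replicate 1 was 268 bp from the start. A window of 2000 bp turned ACSS2 into an end gene, giving 1 with end and 1 with inside peaks. With any library the counts were 7 genes with a peak, 2 with an end peak, 5 with an inside peak, 4 with a start peak and 8 regions. With all 3 libraries they were 1 with a peak, 0 with an end peak, 1 with an inside peak, 0 with a start peak and 0 regions. Leaving out each replicate gave 1 to 2 genes with a peak, 1 to 2 with inside peaks, 0 to 2 with start peaks in 2 libraries and 0 to 2 regions, lowest without replicate 1 or replicate 3. Other settings stayed within 1.5 times. The background of 3.76% was 4.59% among genes of like length. No paired analysis was possible because only the V5 libraries have peak lists.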

Other observations

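Within 100 kb of the 10 genes, 3 reproducible regions lay outside their windows in addition to the one at OLMALINC. FASN had 2, both over ASPSCR1 and present in 3 libraries, at 82.9 kb (folds 4.30, 4.20 and 3.47 in replicates 1, 2 and 3) and 77.3 kb (folds 4.58, 5.05 and 4.62). FADS1 and FADS2 shared 1, over MYRF, at 29.8 kb from FADS1 and 46.3 kb from FADS2, with folds of 4.10 and 4.45 in replicates 1 and 2 and none in replicate 3. ELOVL6 stood far from other peaks, with the nearest beyond its window at 3549, 1425 and 3787 kb in replicates 1, 2 and 3.

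Across all protein-coding genes, listed starts more than 2000 bp inside the span of their gene, like those of ACLY and ACACA that peaks reached, had a peak within 1000 bp in 2.71% of 4426 cases in any library, against 4.02% of 17714 starts nearer a span end.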
